A study of Mus musculus with 16 samples.

Results

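Sox1, Sox11, Pax3, Pax6, Pax7, Hes5, Nes, Zic1 and Emx2, 9 genes known from neural progenitors, were followed across tumors that formed after interrupted reprogramming in mice, the normal organs and embryonic stem (ES) cells. The genes were chosen by name, with earlier results of these data known. Each was read at the only probe set that carried its symbol alone, so that the set makes up 9 of the 19938 genes measured. All 9 had a value on every array, and no filter on low values was applied.

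Neural progenitors are the dividing cells of the embryonic neural plate and tube, and later of the ventricular zone, from which neurons and glia arise. Sox and Pax transcription factors mark them and divide them into regions, Notch signalling holds part of them undifferentiated through effectors of the Hes family, and the intermediate filament nestin (Nes) fills their processes. Several of these genes are also used outside the nervous system: Emx2 acts in the developing urogenital tract, Pax3 and Pax7 in muscle progenitors and neural crest, and nestin is found in podocytes and in endothelium. None of the 9 was chosen as a marker of adult tubule cells or hepatocytes, the main cells of kidney and liver. Emx2 was nevertheless highest in normal kidney here, at a mean of 9.79 against 6.79 in normal liver.

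Total RNA of 16 samples was measured on 1-channel Affymetrix arrays, with 1 array per sample. Secondary kidney tumors (n = 3) had been transplanted from kidney tumors under the skin of immunodeficient mice. Kidney tumors (n = 3) came from reprogrammable mice given doxycycline (Dox) for 7 days from 4 weeks of age and were taken 7 days after its withdrawal. Normal kidney (n = 3) was of the same age. Liver tumors (n = 3) were primary tumors of reprogrammable mice, with no Dox schedule or age in the labels, and were set against normal liver (n = 3). ES cells gave 1 array. The mice derived from an ES cell line and were of 129xC57BL6 F1 or mixed background, the tumors formed in chimeras, with ICR cells possibly among them, and the ES cells were 129xC57BL6 F1. The labels used here name neither the reprogramming factors nor the cells that expressed them, and do not say whether the animals that gave normal tissue carried the transgene or received Dox. Nor do they state that the 3 samples of a group are from different animals, and the p-values therefore reflect only how these samples vary, part of which may be technical.

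Deposited intensities ran from 20.7 to 20260 over all probe sets, with array medians between 191 and 226, and levels below are log2 of these intensities. They compare samples for a given gene and do not compare genes with each other. A low level could not be told from background, and changes there are compressed. Sox11, Pax3, Pax6 and Zic1 lay below all array medians in both normal organs. Emx2 did so in normal liver and secondary kidney tumors. Their changes carry that limit. Organ markers fitted the labels: the mean of 8 proximal tubule genes was 12.90 to 13.00 in normal kidney and 8.03 to 9.68 in normal liver, and that of 7 hepatocyte genes was 8.70 to 8.98 in normal kidney and 13.53 to 13.55 in normal liver. Some arrays stood apart from others of their group. Xist, the RNA of the inactive X chromosome, was at 10.84 and 10.19 in kidney tumors 2 and 3 and at 10.45 and 11.35 in liver tumors 2 and 3, against 5.60 to 6.32 on the other tissue arrays. Adipoq, a fat cell gene, was at 9.87 in secondary kidney tumor 1, 9.98 in normal kidney 2 and 10.38 in normal liver 1, against 5.45 to 6.16 elsewhere. The muscle actin gene Acta1 was at 12.65 in secondary kidney tumor 1, and the neuronal genes Snap25 and Stmn2 were at 10.69 and 10.05 in normal liver 1. Normal liver 1 also held the highest proximal tubule mean of the normal livers, 9.68 against 8.63 and 8.03. Where a call on the 9 genes was lost without such arrays, the value without them stands beside it.

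The sequence upstream of the start site is shown for 4 genes that the results turn on: Sox11, with the largest change, Zic1 and Emx2, whose changes differed between organs, and Hes5, the Notch effector. The 250 bases before the start come from RefSeq on GRCm38.p6, written 5′ to 3′ on the strand of the gene, for Sox11 chr12:27342719-27342968 on the minus strand, Zic1 chr9:91365769-91366018 on the minus strand, Emx2 chr19:59458440-59458689 on the plus strand and Hes5 chr4:154960673-154960922 on the plus strand. Capitals mark matches, on either strand, to the core TGGGAA of RBPJ (the DNA-binding factor of the Notch pathway), to the core CATTGT of Sox factors and to the CCAAT box.
Sox11: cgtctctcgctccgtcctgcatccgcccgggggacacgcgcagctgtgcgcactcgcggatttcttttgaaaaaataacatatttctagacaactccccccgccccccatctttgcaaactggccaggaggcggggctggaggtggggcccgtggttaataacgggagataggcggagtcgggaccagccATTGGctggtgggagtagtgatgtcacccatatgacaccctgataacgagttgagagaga
Zic1: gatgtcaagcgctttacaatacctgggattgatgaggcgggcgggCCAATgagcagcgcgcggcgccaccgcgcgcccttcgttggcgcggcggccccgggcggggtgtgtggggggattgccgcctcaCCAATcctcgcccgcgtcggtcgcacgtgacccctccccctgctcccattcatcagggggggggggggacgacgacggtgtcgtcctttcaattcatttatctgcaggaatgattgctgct
Emx2: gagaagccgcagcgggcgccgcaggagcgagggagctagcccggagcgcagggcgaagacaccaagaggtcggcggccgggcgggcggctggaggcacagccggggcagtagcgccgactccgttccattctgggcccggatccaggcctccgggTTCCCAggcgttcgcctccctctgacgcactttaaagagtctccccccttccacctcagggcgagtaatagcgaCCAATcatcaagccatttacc
Hes5: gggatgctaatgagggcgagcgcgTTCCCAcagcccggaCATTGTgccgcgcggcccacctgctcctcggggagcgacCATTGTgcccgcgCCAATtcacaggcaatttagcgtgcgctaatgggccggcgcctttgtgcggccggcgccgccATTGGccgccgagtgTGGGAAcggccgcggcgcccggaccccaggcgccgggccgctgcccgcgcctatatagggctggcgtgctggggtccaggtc
Hes5 held all 3 motifs, with the RBPJ core beginning 226 and 82 bases before the start, the Sox core at 211 and 172, and the CCAAT box at 159 and 97. Emx2 held the RBPJ core at 95 bases and the CCAAT box at 21, Zic1 the CCAAT box at 205 and 121, and Sox11 the CCAAT box at 60. No matches overlapped in these windows. Of 32851 such windows of mouse genes, 21.6% held the RBPJ core, 10.7% the Sox core and 33.8% the CCAAT box, and 2.77%, 0.834% and 10.1% held the same motif at 2 or more places. RefSeq windows were matched for 8 of the 9 genes, without Pax3, and Pax6 had 2 windows. All of these windows were rich in CpG, with 13 to 32 CpG sites each against a median of 6 over all windows, and the TATA box TATAAA, which 12.4% of all windows held, was in none of them. Other forms of the TATA box were not searched. A match of letters describes the window and does not show that a factor binds there.

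Groups were compared with limma over all 16 arrays, with p-values adjusted by Benjamini-Hochberg over the 19938 genes, and a gene was called, 2-sided, at an adjusted p under 0.05. A log2 change is given with the SE from the fit, and a level with the SD. In tissue samples, more cells of a type and more RNA per cell cannot be told apart. The comparisons of secondary and of primary kidney tumors with normal kidney share the normal kidney arrays.

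**Figure D1:**
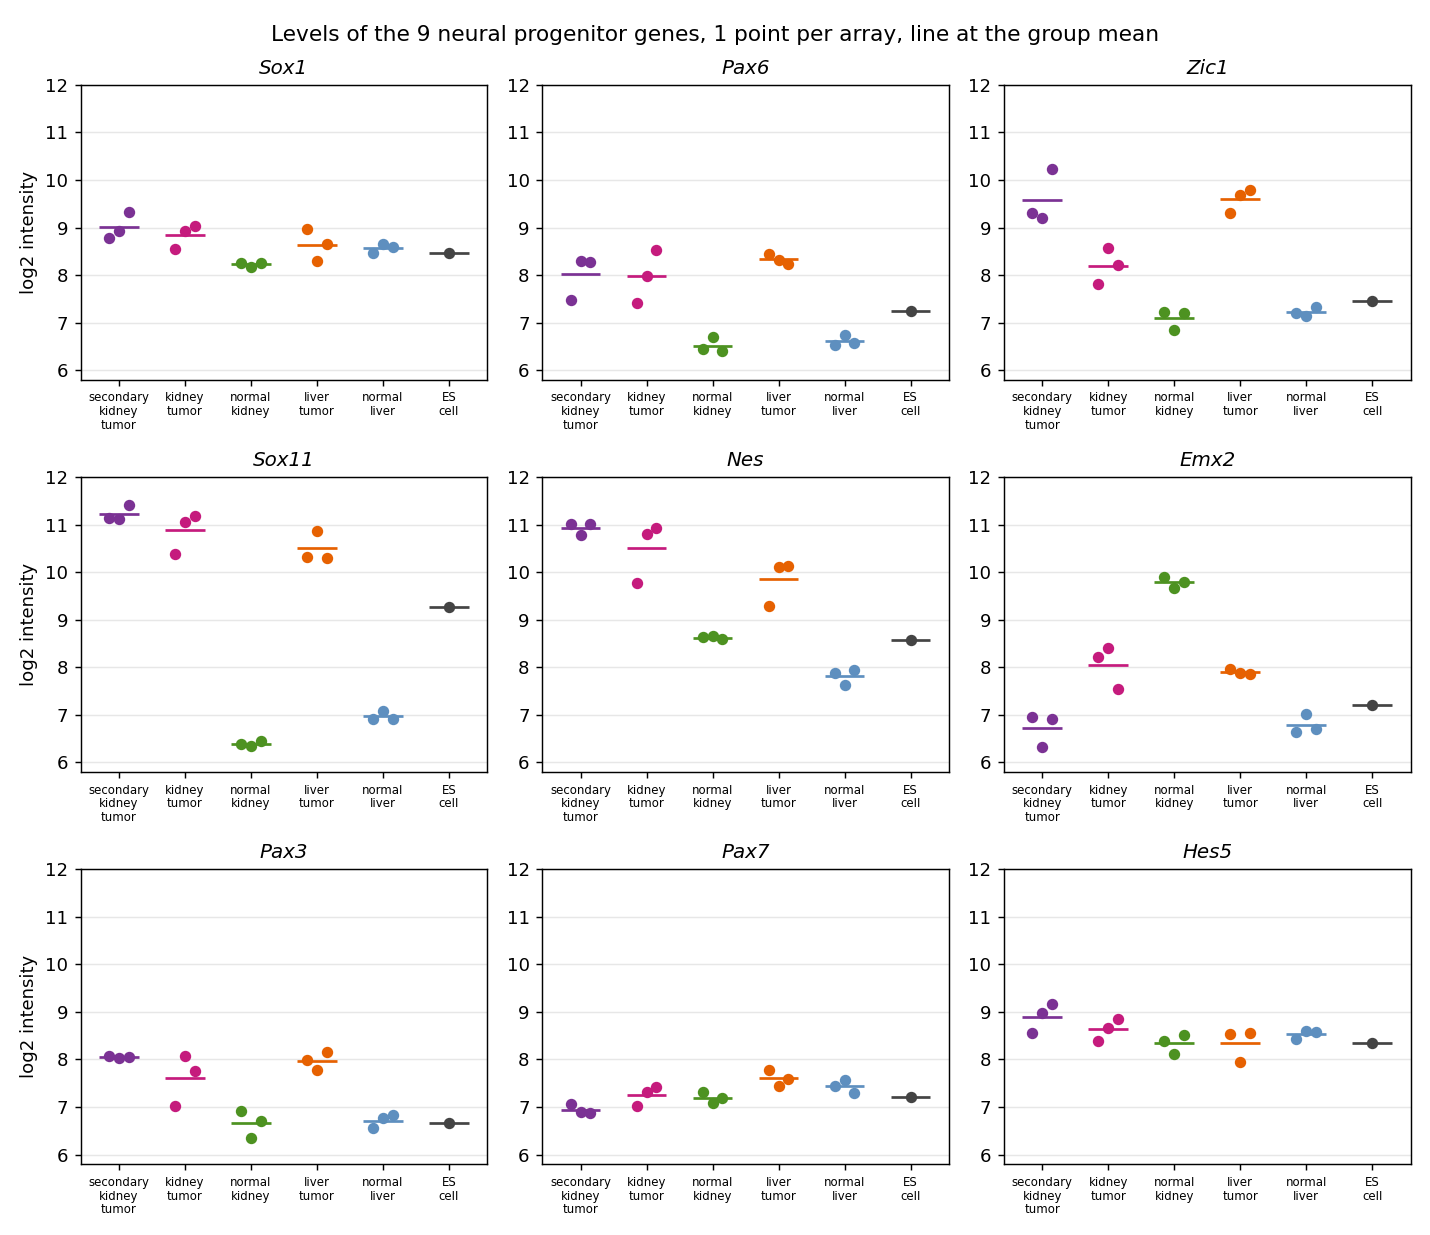
Log2 intensity (y axis) of each of the 9 neural progenitor genes on each array, by group (x axis, from left: secondary kidney tumor, kidney tumor, normal kidney, liver tumor, normal liver, ES cell), with a point per array and a line at the group mean. Sox11 and Nes lie higher on all 9 tumor arrays than on the arrays of either normal organ, Emx2 is highest in normal kidney, and Pax7 stays between 6.87 and 7.78 throughout.

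Sox11, a SoxC transcription factor of committed neural precursors and of many other embryonic tissues, had the largest change of the set in every comparison of a tumor with its normal organ. Its level was 11.15, 11.12 and 11.41 in secondary kidney tumors and 10.39, 11.06 and 11.19 in kidney tumors, against 6.39, 6.35 and 6.46 in normal kidney. Liver tumors had 10.33, 10.88 and 10.31, against 6.91, 7.09 and 6.92 in normal liver. All tumors were thus far above both organs, and all 9 were also above the ES cell array at 9.26. The log2 change was 4.83 ± 0.19 in secondary kidney tumors (28.4-fold, adjusted p = 9.91e-10, limma), 4.48 ± 0.19 in kidney tumors (22.3-fold, adjusted p = 1.14e-08) and 3.53 ± 0.19 in liver tumors (11.6-fold, adjusted p = 6.07e-08). The order of group means ran from secondary kidney tumor over kidney tumor and liver tumor to ES cells, normal liver and normal kidney. The neighbouring tumor groups overlapped, and the other neighbours did not.

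Sox1, a SoxB1 factor that is among the earliest markers of the neural plate, moved much less. Its level was 8.78, 8.93 and 9.33 in secondary kidney tumors and 8.55, 8.94 and 9.04 in kidney tumors, against 8.26, 8.17 and 8.26 in normal kidney. The log2 change was 0.79 ± 0.18 in secondary tumors (adjusted p = 0.00181, limma) and 0.61 ± 0.18 in kidney tumors (adjusted p = 0.0119). All kidney-derived tumors were above all normal kidneys, but the call in primary kidney tumors was lost without kidney tumor 3 (0.51, adjusted p = 0.0546), with quantile normalization (0.49, adjusted p = 0.0592) and without both kidney tumors with Xist signal (0.32, adjusted p = 0.380). In liver tumors Sox1 was at 8.97, 8.30 and 8.65, against 8.47, 8.65 and 8.59 in normal liver, and the groups overlapped, with a difference of 0.07 on the log2 scale (95% interval -0.31 to 0.46, adjusted p = 0.741). ES cells were at 8.46, below 8 of the 9 tumors.

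Pax6, a regulator of forebrain, eye and ventral spinal cord progenitors, was higher in all tumor groups. Its level was 7.48, 8.30 and 8.27 in secondary kidney tumors and 7.42, 7.97 and 8.54 in kidney tumors, against 6.45, 6.70 and 6.40 in normal kidney. Liver tumors were at 8.44, 8.33 and 8.25, against 6.53, 6.74 and 6.58 in normal liver. No tumor overlapped its organ, and liver tumors lay close together (SD 0.10, n = 3), whereas kidney tumors were spread more widely (SD 0.56, n = 3). The log2 change was 1.498 ± 0.25 in secondary kidney tumors (adjusted p = 0.00018, limma), 1.46 ± 0.25 in kidney tumors (adjusted p = 0.000344) and 1.73 ± 0.25 in liver tumors (adjusted p = 0.000129). ES cells were at 7.25, below all tumors and above all normal samples.

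Pax3, a factor of the dorsal neural tube, neural crest and muscle progenitors, followed the same order of tumor and organ. It was at 8.08, 8.02 and 8.05 in secondary kidney tumors and 7.02, 8.07 and 7.76 in kidney tumors, against 6.92, 6.34 and 6.71 in normal kidney. The liver tumors stood at 7.99, 7.79 and 8.15, against 6.55, 6.77 and 6.83 in normal liver. Kidney tumor 1 was close to the highest normal kidney, while the other tumors lay well above normal tissue and above ES cells at 6.67. The log2 change was 1.40 ± 0.22 in secondary kidney tumors (adjusted p = 9.85e-05, limma), 0.96 ± 0.22 in kidney tumors (adjusted p = 0.00262) and 1.26 ± 0.22 in liver tumors (adjusted p = 0.000465). Without both kidney tumors with Xist signal, which leaves kidney tumor 1, the change in primary kidney tumors was 0.36 (adjusted p = 0.222).

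Pax7, the paralog of Pax3 in dorsal neural tube and muscle stem cells, passed the test in no comparison. Its intensities, 117 to 220, lay within or below the range of the array medians (191 to 226). These medians do not measure background, but at such levels Pax7 RNA could not be told from it. Its small differences carry that limit. It was at 7.06, 6.90 and 6.87 in secondary kidney tumors and 7.02, 7.31 and 7.43 in kidney tumors, against 7.31, 7.07 and 7.19 in normal kidney. In liver tumors it was at 7.78, 7.45 and 7.59, against 7.45, 7.56 and 7.30 in normal liver, and ES cells were at 7.21. The secondary kidney tumors were all below the normal kidneys, with a log2 difference of -0.25 ± 0.12 (adjusted p = 0.0807, limma). That difference passed the threshold when arrays were centred on their median (-0.45, adjusted p = 0.00396), with quantile normalization (-0.33, adjusted p = 0.0297), with array weights (-0.30, adjusted p = 0.00444) and with the compared groups alone (adjusted p = 0.0342). In primary kidney tumors it was 0.06 (95% interval -0.20 to 0.32, adjusted p = 0.684), and in liver tumors 0.17 (adjusted p = 0.242). Of 10 skeletal muscle genes 1 was called in secondary kidney tumors and none in kidney or liver tumors, and of 7 neural crest genes 4 were higher and 1 lower in secondary kidney tumors, 2 higher in kidney tumors, and 2 higher and 2 lower in liver tumors. The mean of the skeletal muscle genes was 9.28 in secondary kidney tumor 1, against 6.90 and 6.97 in the other secondary tumors. On the same arrays Pax3 was at 8.08, against 8.02 and 8.05, and Pax7 at 7.06, against 6.90 and 6.87. The muscle gene Acta1 had an SE of 0.84 in the fit, which limits the count of muscle genes called. The part of muscle or neural crest cells in the levels of Pax3 and Pax7 was not tested.

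Zic1, a zinc finger factor of the dorsal neural tube and cerebellar progenitors, separated the tumor groups. Its level was 9.31, 9.20 and 10.23 in secondary kidney tumors and 7.81, 8.57 and 8.21 in kidney tumors, against 7.22, 6.84 and 7.21 in normal kidney. It reached 9.30, 9.69 and 9.79 in liver tumors, against 7.20, 7.13 and 7.34 in normal liver, and ES cells were at 7.46. Secondary kidney tumors and liver tumors overlapped at the top, and primary kidney tumors lay between them and all normal samples without overlap. The log2 change against the normal organ was 2.49 ± 0.26 in secondary kidney tumors (5.62-fold, adjusted p = 2.11e-06, limma), 1.11 ± 0.26 in kidney tumors (adjusted p = 0.00279) and 2.37 ± 0.26 in liver tumors (adjusted p = 1.22e-05). The test of secondary against primary kidney tumors gave 1.38 ± 0.26 (adjusted p = 0.000902), and that of kidney against liver tumors -1.39 ± 0.26 (adjusted p = 0.00237). Without both kidney tumors with Xist signal the change against normal kidney was 0.72 (adjusted p = 0.151), and without both liver tumors with Xist signal the difference between kidney and liver tumors was -1.10 (adjusted p = 0.0685).

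Emx2, a homeobox gene of the dorsal forebrain that is also needed for the embryonic urogenital tract, ran in opposite directions in the 2 organs. Its level was 6.95, 6.33 and 6.91 in secondary kidney tumors and 8.21, 8.41 and 7.55 in kidney tumors, against 9.90, 9.67 and 9.80 in normal kidney. In liver tumors it was 7.96, 7.89 and 7.87, against 6.65, 7.01 and 6.70 in normal liver. Normal kidney was thus the highest group, kidney and liver tumors overlapped in the middle, and secondary kidney tumors overlapped normal liver at the bottom, with ES cells at 7.20. The log2 change was -3.06 ± 0.21 in secondary kidney tumors (8.33-fold lower, adjusted p = 4.92e-08, limma), -1.73 ± 0.21 in kidney tumors (3.32-fold lower, adjusted p = 1.75e-05) and 1.12 ± 0.21 in liver tumors (2.17-fold higher, adjusted p = 0.000702). Secondary kidney tumors were also below primary ones, with a log2 difference of -1.33 ± 0.21 (adjusted p = 0.000233).

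Kidney genes moved in the kidney comparisons beside Emx2. The mean of the 8 proximal tubule genes was 7.42 to 7.60 in secondary kidney tumors and 10.53 to 11.56 in kidney tumors, against 12.90 to 13.00 in normal kidney, and 8 and 5 of them fell. In liver tumors this mean was 8.52 to 8.66, against 8.03 to 9.68 in normal liver, where normal liver 1 was the highest. Of these genes 2 were higher and 1 lower in liver tumors. Of 12 genes of ureteric bud and early nephron, among them Emx2 itself, 5 rose and 2 fell in secondary kidney tumors, 5 rose and 1 fell in kidney tumors, and 6 rose and 2 fell in liver tumors. The part of the change in tubule cells in the levels of Emx2 was not tested.

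Hes5, a direct target of Notch in neural progenitors, changed little. It was at 8.55, 8.97 and 9.16 in secondary kidney tumors and 8.39, 8.67 and 8.86 in kidney tumors, against 8.39, 8.12 and 8.51 in normal kidney. In liver tumors it was at 8.55, 7.94 and 8.56, against 8.43, 8.60 and 8.59 in normal liver, and ES cells were at 8.34. Only secondary kidney tumors were all above their normal organ, with a log2 change of 0.56 ± 0.19 (adjusted p = 0.021, limma). That call was lost without secondary kidney tumor 2 (0.52, adjusted p = 0.0610), secondary kidney tumor 3 (0.43, adjusted p = 0.0914) or normal kidney 2 (0.45, adjusted p = 0.0841), without normal kidney 2 and normal liver 1 together (0.45, adjusted p = 0.0961), with quantile normalization (0.43, adjusted p = 0.0962) and with median centring (0.35, adjusted p = 0.122). In kidney tumors the difference was 0.30 (95% interval -0.12 to 0.72, adjusted p = 0.211) and in liver tumors -0.19 (95% interval -0.61 to 0.23, adjusted p = 0.410).

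Nes, which encodes nestin, was higher in every tumor group. Its level was 11.02, 10.78 and 11.02 in secondary kidney tumors and 9.77, 10.81 and 10.93 in kidney tumors, against 8.64, 8.65 and 8.59 in normal kidney. In liver tumors it was 9.29, 10.12 and 10.14, against 7.88, 7.63 and 7.95 in normal liver. No tumor overlapped a normal sample, kidney tumor 1 and liver tumor 1 were the lowest of their groups, and ES cells, at 8.58, were below all 9 tumors. The log2 change was 2.31 ± 0.27 in secondary kidney tumors (4.96-fold, adjusted p = 8.14e-06, limma), 1.87 ± 0.27 in kidney tumors (3.67-fold, adjusted p = 9.22e-05) and 2.03 ± 0.27 in liver tumors (4.08-fold, adjusted p = 7.01e-05). Of 5 podocyte genes 4 fell and 1 rose in both kidney tumor groups, and 2 rose and 1 fell in liver tumors, while of 8 endothelial genes 5, 3 and 0 fell in secondary kidney, kidney and liver tumors and none rose. The podocyte gene that rose was Podxl in kidney tumors (0.76) and Ptpro in secondary kidney tumors (1.04), and each fell in the other group. Podxl, of podocytes and endothelium, rose by 2.54 in liver tumors. The part of these cell types in the levels of Nes was not tested.

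Read by comparison, 6 of the 9 genes were higher and 1 lower in kidney tumors than in normal kidney, where 21.7% of all genes were called higher and 28.1% lower. The median log2 change was 0.96 over the 9 genes and -0.11 over all genes. In secondary kidney tumors 7 were higher and 1 lower than in normal kidney, where 29.9% of all genes were called higher and 38.7% lower, and the medians were 1.40 and -0.13. Against normal liver, liver tumors had 6 higher and none lower, where 21.5% of all genes were called higher and 30.7% lower, and the medians were 1.26 and -0.13. Since the 9 genes were chosen with earlier results of these data known, the shares of all genes describe the set and do not test it. The 5 genes Sox11, Zic1, Nes, Pax6 and Pax3 were higher in all 3 comparisons. How many of all genes were higher in all 3 was not counted, and the kidney comparisons share normal kidney arrays. This is therefore no trait of the set. Without both kidney tumors with Xist signal 4 genes were called in kidney tumors, namely Sox11, Nes and Pax6 as higher and Emx2 as lower. Centring each array on its median, which moved the median over all genes to -0.22, -0.33 and -0.24 in kidney, secondary kidney and liver tumors, turned the share of all calls that were higher to 30.3%, 30.6% and 29.3%, in place of 43.6%, 43.6% and 41.2%.

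**Figure D2:**
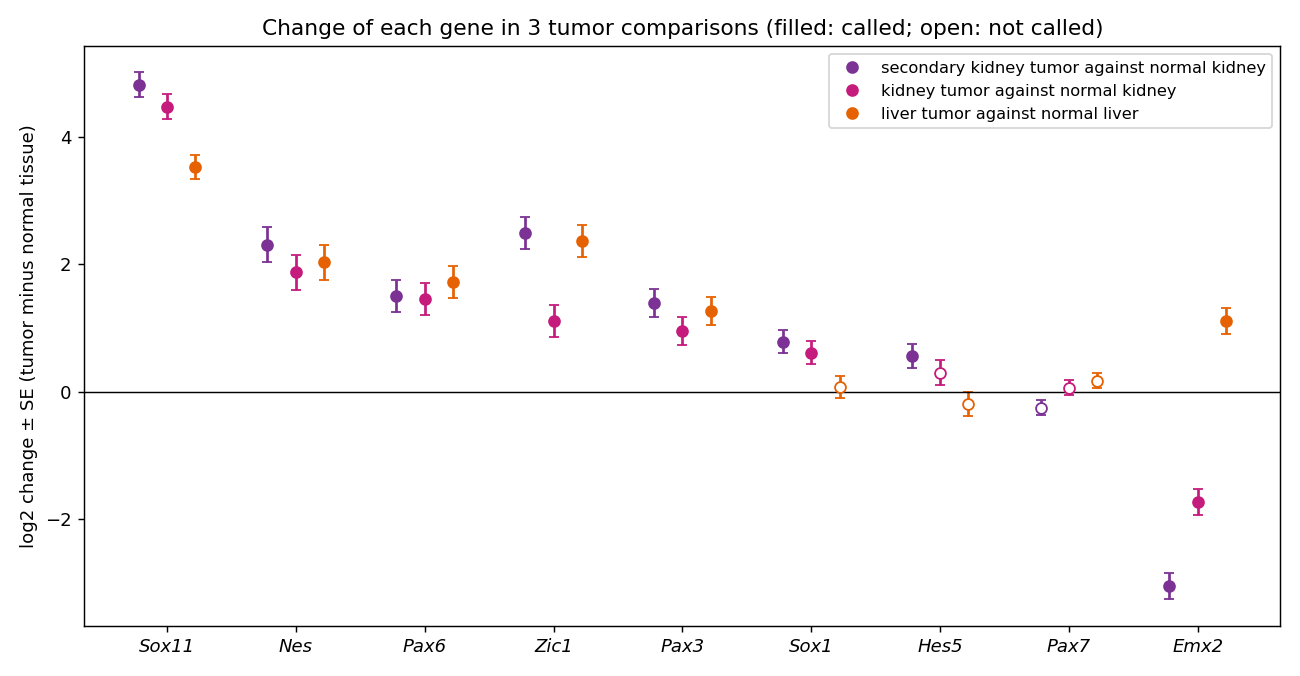
Log2 change with SE (y axis) of each of the 9 genes (x axis) in the 3 comparisons of tumors with the normal organ, with filled points for called and open points for not called. Sox11 is at 3.53 to 4.83 in all 3, Emx2 lies below 0 in both kidney comparisons and above 0 in liver, and Pax7 is open in all 3.

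Secondary kidney tumors, which grew outside the kidney, differed from primary ones in 2 of the 9 genes, Zic1 as higher and Emx2 as lower, where 18.5% of all genes were called higher and 17.4% lower. The differences of the others were Nes 0.44 (95% interval -0.16 to 1.03), Pax3 0.44 (-0.04 to 0.91), Sox11 0.35 (-0.07 to 0.76), Hes5 0.26 (-0.16 to 0.68), Sox1 0.17 (-0.21 to 0.56), Pax6 0.04 (-0.51 to 0.59) and Pax7 -0.31 (-0.57 to -0.05) on the log2 scale. None of these 7 passed the adjusted threshold, with adjusted p from 0.0603 for Pax7 to 0.918 for Pax6 (limma). Pax7 was called as lower with quantile normalization (-0.33, adjusted p = 0.0478), median centring (-0.40, adjusted p = 0.0178), array weights (-0.39, adjusted p = 0.00092) and without kidney tumor 1 (-0.43, adjusted p = 0.0135). Pax3 was called without kidney tumor 2 (0.66, adjusted p = 0.0314). Without both kidney tumors with Xist signal, which leaves kidney tumor 1, the differences were 1.03 for Pax3, 1.17 for Nes and 0.84 for Sox11. Median centring turned the share of all calls that were higher to 36.9%, in place of 51.5%. Kidney tumor 1 was the lowest of the kidney tumors in 8 of the 9 genes, which it was in 40.7% of all genes, and kidney tumor 3 the highest in 6, which it was in 37.2%.

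Set directly against each other, kidney and liver tumors differed in Zic1 alone, lower in kidney tumors, where 7.06% of all genes were called higher and 5.9% lower. Sox11 was higher by 0.37 (95% interval -0.04 to 0.79) and Nes by 0.65 (0.06 to 1.25) in kidney tumors, with adjusted p = 0.258 and 0.157 (limma). Both were called without kidney tumor 1 (0.62, adjusted p = 0.0183 for Sox11, and 1.02, adjusted p = 0.00588 for Nes) and with array weights (0.64, adjusted p = 0.0124 for Sox11, and 0.83, adjusted p = 0.0184 for Nes), and Nes also without both liver tumors with Xist signal (1.21, adjusted p = 0.0374). Pax7, at -0.35 (adjusted p = 0.0771), was called without kidney tumor 3 (-0.44, adjusted p = 0.0465) or liver tumor 2 (-0.43, adjusted p = 0.0356), without both liver tumors with Xist signal (-0.52, adjusted p = 0.0492) and without both kidney tumors with Xist signal (-0.58, adjusted p = 0.0320). Pax3 was called in that last setting too (-0.96, adjusted p = 0.0103).

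The normal organs differed in 3 of the 9 genes, where 21.4% of all genes were called higher and 16.4% lower in normal kidney than in normal liver. Emx2 was higher in kidney by 3.00 ± 0.21 (adjusted p = 1.07e-07, limma) and kept this call in all alternatives. Nes was higher by 0.81 ± 0.27 (adjusted p = 0.0335) and Sox11 was lower, at -0.57 ± 0.19 (adjusted p = 0.0318), and both calls were lost when any of the 6 normal arrays was left out, with adjusted p from 0.0536 to 0.109 for Nes and from 0.0543 to 0.0999 for Sox11. Without normal kidney 2 and normal liver 1 together Nes was at 0.82 (adjusted p = 0.125) and Sox11 at -0.58 (adjusted p = 0.122). Sox11 lay below the array medians in both organs, where changes are compressed.

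The tumor effect itself was compared between organs by subtracting the change in liver from that in kidney. It differed in 3 of the 9 genes, 1 of them higher and 2 lower in kidney, where 7.54% of all genes were called higher and 9.26% lower. For Emx2 the difference was -2.85 ± 0.29 (adjusted p = 5.87e-05, limma), between -3.02 and -2.41 in all 25 alternatives, each of which kept the call. For Zic1 it was -1.26 ± 0.36 (adjusted p = 0.0301) and for Sox11 0.95 ± 0.27 (adjusted p = 0.0307), the rise of Zic1 being smaller and that of Sox11 larger in kidney. These calls were lost in 11 and 13 of 25 alternatives. For Zic1 they included leaving out kidney tumor 1 or 3, normal kidney 1 or 3, liver tumor 2 or 3, or normal liver 1 or 2 (adjusted p from 0.0507 to 0.0694). Zic1 was at -0.97 (adjusted p = 0.186) without both liver tumors with Xist signal, and at -1.38 (adjusted p = 0.0616) without normal kidney 2 and normal liver 1 together. For Sox11 they included leaving out any normal kidney, kidney tumor 2 or 3, liver tumor 1 or 3, or normal liver 2 or 3 (adjusted p from 0.0525 to 0.0771). Sox11 was at 0.46 (adjusted p = 0.338) without both kidney tumors with Xist signal, and at 0.95 (adjusted p = 0.0935) without normal kidney 2 and normal liver 1 together. Pax3 was called without both kidney tumors with Xist signal (-0.90, adjusted p = 0.0483). The other 6 genes were not called, and the difference was -0.16 (95% interval -0.996 to 0.685) for Nes, -0.27 (-1.04 to 0.51) for Pax6 and 0.54 (-0.01 to 1.09) for Sox1.

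**Figure D3:**
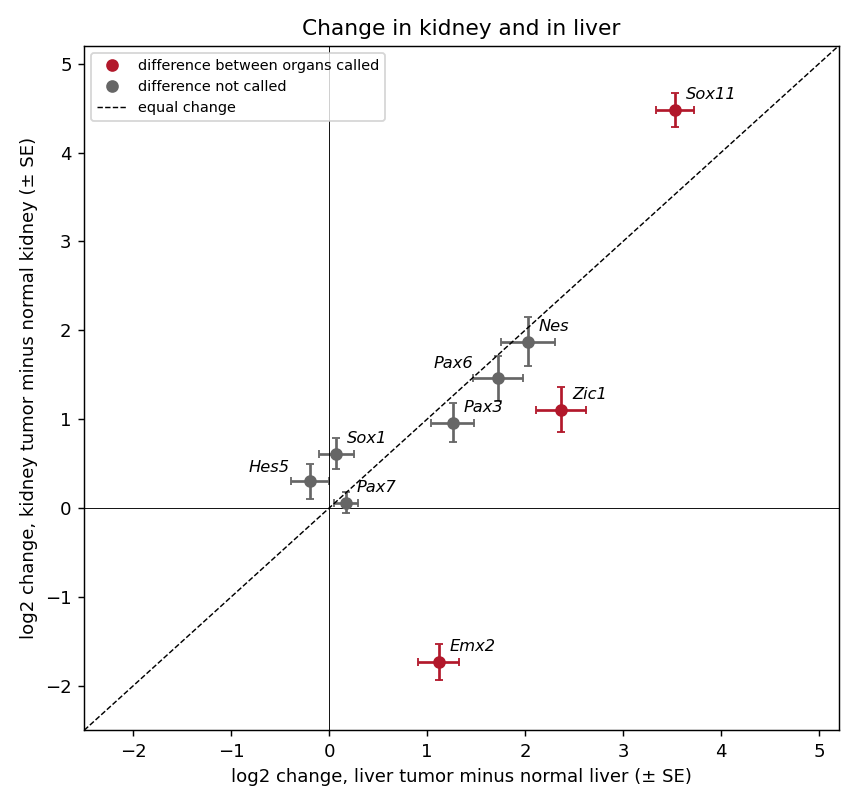
Log2 change with SE of each of the 9 genes in kidney tumors against normal kidney (y axis) and in liver tumors against normal liver (x axis), with a dashed line where both are equal. Nes, Pax3 and Pax6 lie near the line, Emx2 lies far below it at -1.73 and 1.12, Zic1 lies below it at 1.11 and 2.37, and Sox11 above it at 4.48 and 3.53.

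Other genes of neural progenitors and the neural plate, 42 measured of 47 listed, moved in the same comparisons. In kidney tumors 26 rose and 2 fell, with a median log2 change of 0.85, and in secondary kidney tumors 27 rose and 6 fell, with a median of 0.83. In liver tumors 22 rose and 3 fell, with a median of 0.59. The largest rises in kidney tumors were Otx2 (5.01 ± 0.29), a factor of forebrain and midbrain and of the epiblast, Zic2 (4.60 ± 0.21) and Sox2 (4.46 ± 0.24), a progenitor and pluripotency factor that is also used for reprogramming. The same genes led in liver tumors, with Otx2 at 4.65, Zic2 at 4.53 and Sox2 at 4.23. Sox2 (5.33), the RNA-binding protein gene Msi1 (4.54) and Otx2 (4.20) led in secondary kidney tumors. The members that fell in kidney were Pax2 (-0.92) and the cortical gene Emx1 (-0.86) in primary tumors, and Pax8 (-3.60), Pax2 (-1.76) and Emx1 (-1.41) fell furthest in secondary tumors, Pax2 and Pax8 being factors of nephron epithelium as well. In liver tumors Dbx2 (-0.41), Gsx2 (-0.39) and Emx1 (-0.31) fell. Between secondary and primary kidney tumors 14 of the 42 were higher and 13 lower, led by Olig2 (1.98), of motor neuron and oligodendrocyte progenitors, Neurog2 (1.501), which drives progenitors to neurons, and Nr2f1 (1.09) as higher and Pax8 (-2.95), Hoxb1 (-1.08) and Pax2 (-0.85) as lower.

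The Notch pathway, which acts through Hes5 in neural progenitors, had all 23 listed genes measured. In kidney tumors 13 rose and 5 fell, in secondary kidney tumors 14 rose and 6 fell, and in liver tumors 8 rose and 4 fell, with medians of 0.58, 0.80 and 0.28. The effector Hey1 rose by 2.27, 3.37 and 1.30 and the receptor Notch3 by 1.98, 1.97 and 1.60 in kidney, secondary kidney and liver tumors. The ligand Dll3 rose by 1.61 in kidney tumors, the glycosyltransferase Lfng by 2.04 in secondary kidney tumors and the ligand Jag1 by 1.33 in liver tumors. Rfng, a glycosyltransferase that modifies Notch (-1.20), Hes6, an inhibitor of Hes1 (-0.76), and the endothelial ligand Dll4 (-0.64) fell furthest in kidney tumors. In secondary kidney tumors these were Notch4 (-0.92), Numb (-0.83), an inhibitor of Notch, and Dll4 (-0.82), and in liver tumors Hes6 (-1.75), Rfng (-0.84) and Hes7 (-0.44). Secondary kidney tumors exceeded primary ones in 6 genes, led by Hey1 (1.11), Jag2 (1.05) and Lfng (1.00), and were lower in Numb (-0.47).

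Markers of more mature neural cells differed between the tumor groups. All 14 neuron genes rose in secondary kidney tumors (median 4.36) and 11 in kidney tumors (median 1.76), whereas in liver tumors 3 rose and 1 fell (median 0.33). Of 9 glial genes 8 rose and 1 fell in secondary kidney tumors (median 2.61), 1 rose and 2 fell in kidney tumors, and 2 rose and 5 fell in liver tumors. Those that fell in kidney tumors were Aldh1l1 and Aqp4, at means of 12.28 and 9.65 in normal kidney. Both were also among those that fell in liver tumors, from 12.76 and 8.31 in normal liver. The part of organ cells in these falls was not tested. The mean of the neuron genes was 10.43 to 10.91 in secondary kidney tumors and 8.001 to 9.015 in kidney tumors, against 6.49 to 6.67 in normal kidney, and 7.41 to 7.91 in liver tumors, against 6.97 to 7.94 in normal liver, where normal liver 1 with its Snap25 signal was the highest. Normal livers 2 and 3, at 6.97 and 6.98, were below all liver tumors. The neuron counts in liver were not recomputed without normal liver 1, which limits their contrast with kidney. The mean of the 9 neural progenitor genes was 8.71 to 9.03 in secondary kidney tumors and 8.29 to 8.87 in kidney tumors, against 7.55 to 7.72 in normal kidney, and 8.71 to 8.81 in liver tumors, against 7.34 to 7.46 in normal liver.

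**Figure D4:**
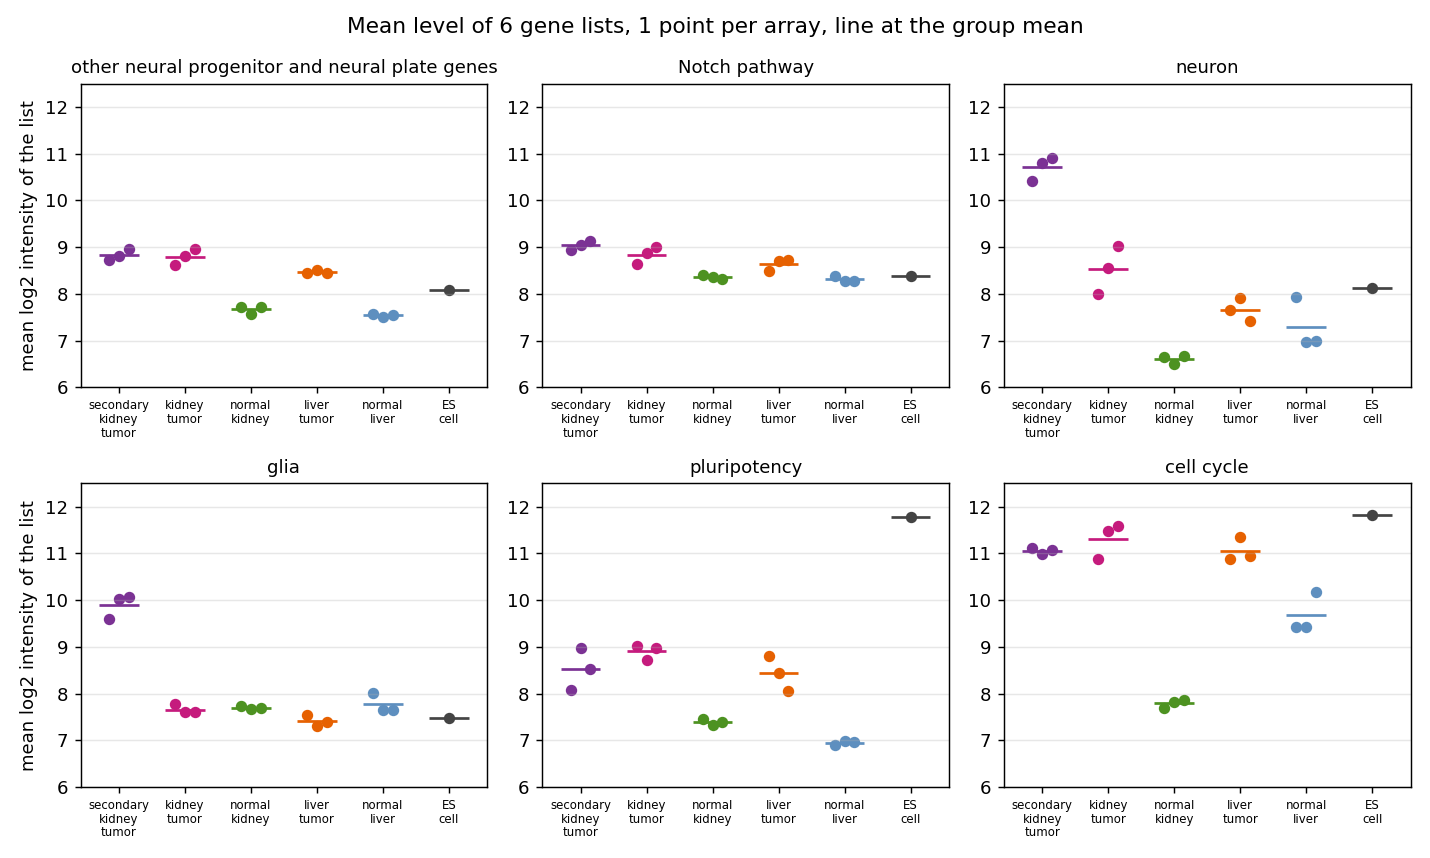
Mean log2 intensity (y axis) of 6 gene lists on each array by group (x axis, from left: secondary kidney tumor, kidney tumor, normal kidney, liver tumor, normal liver, ES cell), with a point per array and a line at the group mean. Neuron and glial genes are highest in secondary kidney tumors, pluripotency genes are highest in ES cells at 11.78, and cell cycle genes are at 10.87 or above on all tumor arrays.

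Pluripotency and cell cycle genes moved with the same tumors. Of 10 pluripotency genes, Sox2 among them, 6 rose and 2 fell in secondary kidney tumors, 5 rose and 2 fell in kidney tumors and 5 rose in liver tumors, and their mean reached 8.08 to 8.98, 8.73 to 9.02 and 8.05 to 8.80 in these groups, against 11.78 in ES cells. All 9 cell cycle genes rose in each tumor group, with medians of 3.45 in kidney, 3.005 in secondary kidney and 1.11 in liver tumors. Their mean was 7.70 to 7.86 in normal kidney and 9.42 to 10.18 in normal liver, so the starting level differed between organs. The ES cell array, with no replicate and no test, had Sox11, Pax6, Zic1, Pax3 and Nes below all 9 tumors, Sox1 and Hes5 below 8, Emx2 below 6 and Pax7 below 5. How many of all genes lay below the tumors on this array was not counted, so this is no trait of the set. The part of pluripotent or dividing cells in the levels of the 9 genes was not tested.

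For each member the 3 genes most like it were taken by Pearson's r of the levels over the 16 arrays, among genes with a range of at least 2 log2 units, with no test because the arrays fall into the 6 groups and share them between genes. Sox11 was matched most closely, by Msi1 (0.995), Ubtd2 (0.994) and Mex3a (0.990), an RNA-binding protein gene. Msi1 lay at 11.67 to 11.86 in secondary kidney tumors, 10.69 to 11.55 in kidney tumors and 10.72 to 10.95 in liver tumors, against 7.17 to 7.31 in normal kidney and 7.31 to 7.74 in normal liver. Nes was followed by the Wnt receptor gene Fzd3 (0.984), the microtubule protein gene Eml1 (0.978) and Plch1 (0.976). Pax3 was closest to the ephrin receptor gene Epha7 (0.946), Tnfrsf19 (0.932) and Tmem132c (0.925), and Zic1 to Tnfrsf19 (0.943), Tmem132c (0.936) and the imprinted non-coding RNA Rian (0.922). Pax6 was closest to Tmc7 (0.937), the hedgehog pathway factor Gli3 (0.933) and Epha7 (0.931). Emx2 had a different pattern, with Cish (0.946), a suppressor of cytokine signalling, Map3k15 (0.943) and Myo15b (0.938). Cish was at 7.58 to 7.72 in secondary kidney tumors and 8.40 to 9.01 in kidney tumors, against 9.54 to 10.08 in normal kidney, and at 8.66 to 9.04 in liver tumors, against 7.44 to 7.83 in normal liver. The flatter genes had looser matches: Sox1 with the neural factors Pou3f2 (0.861) and Sox21 (0.861) and with Dtx4 (0.839), Hes5 with the potassium channel gene Kcnk10 (0.830), Fgfbp3 (0.798) and the neural splicing factor gene Srrm4 (0.792). Pax7 was nearest to Flt4 (0.838), a receptor of lymphatic endothelium, the plasma protein gene Serpina10 (0.820) and the macrophage receptor gene Marco (0.819), and Flt4 was highest in liver tumors and normal liver, as Pax7 was.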

How the data were processed

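Total RNA of 16 mouse samples was hybridised to Affymetrix arrays after RNeasy Plus extraction and WT Terminal labelling, per the labels' protocols. The authors deposited intensities on a linear scale for every probe set. How background was corrected, probes summarised and arrays normalized is not given in the sources used here. mm9 is named in the submitters' processing notes, and no coordinates of that build were used. Log2 of the deposited intensities was taken with no further scaling.

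Per GEO's platform annotation, 21789 of 28856 probe sets carried 1 symbol, 1621 several and 5446 none. The probe set with the highest mean was kept for each of 19938 genes. limma 3.58.1 in R 4.3.3 fitted 1 coefficient per group (10 residual and 2.66 prior degrees of freedom, no trend), giving 7 comparisons, and was tested on simulated data. The number of arrays limits the precision, and arrays of a group correlated at 0.976 to 0.996. The ES cell array enters levels and no comparison.

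The members and lists were chosen with earlier results of these data known. The text names all 9 members, the 3 genes most like each and, from the neural progenitor and Notch lists, the 3 called genes of largest change in each direction. The likeness search skipped predicted models, olfactory and vomeronasal receptors and small RNAs. Alternatives were the scaling, the probe set rule, a filter on dim genes, an offset of 50, array weights, an intensity trend, the compared groups alone, the replicate number as a block, each array left out, and arrays that stood apart left out.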

Additional observations from a re-analysis of the deposited data

Results flagged for a closer look

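The effect of the tumor on 3 of the 9 genes differed between kidney and liver by the test of the difference itself (limma, adjusted over all genes). Of these, 1 was higher and 2 lower in kidney, where 7.54% of all genes were called higher and 9.26% lower. For Emx2 the change in kidney tumors minus the change in liver tumors was -2.848 on the log2 scale (adjusted p = 5.87e-05), with a mean of 8.06 in kidney tumors against 9.79 in normal kidney, and of 7.91 in liver tumors against 6.79 in normal liver. All 3 kidney tumors were below all normal kidneys and all 3 liver tumors above all normal livers. For Zic1 the difference was -1.262 (adjusted p = 0.0301), with means of 8.20 in kidney tumors against 7.09 in normal kidney and 9.59 in liver tumors against 7.22 in normal liver. For Sox11 it was 0.948 (adjusted p = 0.0307), with means of 10.88 in kidney tumors against 6.40 in normal kidney and 10.50 in liver tumors against 6.97 in normal liver. Emx2 kept its call in all 25 alternatives, while the calls of Zic1 and Sox11 were lost in 11 and 13 of them. Sox11 lay below the array medians in both normal organs, where changes are compressed. Kidney and liver tumors themselves differed in Sox11 by 0.37, which was not called.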

How the results depend on the processing

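Among the changes of the 9 genes recomputed under each alternative, 1066 values kept their side of the threshold and their direction, 53 lost a call, 25 gained one, 26 uncalled differences changed sign and no called one did. In liver tumors against normal liver 6 of the 9 genes were called under all 18 alternatives. In kidney tumors against normal kidney the count was 6 or 7 with each array left out, but 4 without both Xist arrays, when calls over all genes were 5715 in place of 9922. Those kidney tumors left out, 5 members were called between secondary and primary kidney tumors in place of 2, 3 between kidney and liver tumors in place of 1, and 1692 genes for the difference between organs in place of 3350. Without the liver tumors with Xist signal, an alternative added after seeing the data, 5862 genes were called in liver tumors in place of 10419, and 2 members between kidney and liver tumors. Both leave a tumor group with 1 array, which is assumed to vary like the others. Between kidney and liver tumors the compared groups alone called 948 genes in place of 2584, and array weights 4282 genes and 3 members. Array weights called 5071 genes for the difference between organs. Between the normal organs 1 member in place of 3 was called with the offset of 50, with each array left out (1 to 1), and without normal kidney 2 and normal liver 1 together, when the difference between organs also kept 1 of 3. With each array left out, kidney against liver tumors had 1 to 3 members called, and the difference between organs 1 to 2. Other causes of these shifts were not tested.

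Deviations of same-numbered samples from their group means correlated at -0.278 to 0.272. Kidney and liver tumors 1, 2 and 3 gave 0.272, 0.253 and 0.004. All correlations were also above 0, at 0.037 to 0.139, for kidney tumors with normal kidney and with secondary kidney tumors. Xist was high in tumors 2 and 3 of both organs. Whether same-numbered tumors share an animal was not tested, and the numbers were not taken as pairs in the main fit. With the replicate number as a block, the members called were 7 in kidney tumors, 8 in secondary kidney tumors, 2 between these, 6 in liver tumors, 1 between kidney and liver tumors, 3 between normal organs and 3 for the difference between organs, as without it, and the genes called in kidney tumors were 9797.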

Other observations

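Of the 42 other neural progenitor genes, 10 were higher and 4 lower in kidney than in liver tumors (limma), where 7.06% of all genes were called higher and 5.9% lower. Nkx6-1 and Nkx2-2, factors of the ventral neural tube, were at means of 9.23 and 8.08 in kidney tumors, against 7.66 and 6.65 in liver tumors, higher by 1.56 ± 0.17 (adjusted p = 3.02e-05) and 1.43 ± 0.23 (adjusted p = 0.000902). Both also differed between organs in the tumor effect itself, by 1.77 ± 0.24 (adjusted p = 0.000387) and 1.71 ± 0.33 (adjusted p = 0.00341), as did Sox9 (1.83 ± 0.35, adjusted p = 0.00347) in the same direction and Prom1 (-1.39), Pax2 (-1.13) and Msi2 (-0.92) in the other. Pax8 was also higher in kidney tumors (2.87), and higher in normal kidney than in normal liver (4.10), as were Irx3 (2.01) and Pax2 (1.99). Lhx2 (-1.50), Nr2e1 (-0.91) and Atoh1 (-0.82) were lower in kidney than in liver tumors. Lhx2 was likewise lower in normal kidney than in normal liver (-1.21), beside Sox9 (-1.56) and Sox21 (-0.61).

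In the Notch pathway, Dll3 (1.01), Dll1 (0.61) and Jag1 (0.50) were the genes of largest rise in kidney against liver tumors, and Dll4 (-0.91) was lower. The log2 change in kidney minus that in liver was above 0 for Dll3 (1.18), Hes6 (0.99) and Hes1 (0.86) and below 0 for Dll4 (-1.39), Notch4 (-0.94) and Jag1 (-0.75). Between the normal organs Jag1 (1.25), Notch4 (0.60) and Rbpj (0.51) were higher in kidney and Hes6 (-0.60), Hes1 (-0.59) and Notch1 (-0.55) lower. In normal liver 1, which held the Snap25 and Stmn2 signal, 6 of the 9 neural progenitor genes were at their lowest among the normal livers, which held for 37.1% of all genes.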
